A study of Mus musculus with 2 samples.

Results

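The 35 genes described here build and steer the vesicles that travel between the endoplasmic reticulum (ER) and the Golgi apparatus, and they were chosen by symbol, as a module named ER to Golgi transport coats and receptors. All 35 were found among the 27998 genes of the count tables. They fall into 7 role groups: 8 subunits of the COPI coat, 4 small GTPases, 9 parts of the COPII coat with its scaffold, 1 SNARE, 7 p24 proteins, 3 KDEL receptors and 3 cargo receptors. The values come from islet cells of wild type C57BL/6J mice, an inbred laboratory strain, profiled with the 10x Genomics single cell 3' v2 chemistry, which counts transcripts by unique molecular identifiers (UMIs). The chow library pooled 4 mice on regular chow, and the high-fat diet (HFD) library pooled 5 mice on a 60% high fat diet, in each case for 6 weeks after weaning. In both groups the picked islets were kept in culture overnight before they were dispersed, so every value describes cells after that culture, and cells cannot be assigned to single mice.

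Newly made secretory proteins leave the ER in vesicles coated by COPII. The GTPase SAR1 is loaded at ER exit sites that SEC16A organises, it recruits the inner layer of SEC23 and SEC24, in which SEC24 binds the cargo, and SEC13 with SEC31 forms the outer cage. COPI, a coat of several subunits recruited by ARF GTPases, carries material back from the Golgi: escaped ER chaperones bound to KDEL receptors, and the transport machinery itself. The p24 proteins and the receptors LMAN1, MCFD2 and SURF4 select soluble or anchored cargo, and SEC22B is a SNARE that fuses the vesicles with their target membrane. A beta cell uses this route for proinsulin, its main secretory product.

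The chow library held 6509 barcodes and 89292222 UMIs, and the HFD library 4539 barcodes and 68544729 UMIs, with a median of 12414 and 13911 UMIs per barcode. After filters on genes, mitochondrial UMIs and doublet scores, 6109 chow and 4200 HFD cells were kept, and 45 barcode sequences occurred in both libraries. Cells were typed by hormone share of UMIs, which gave 4372 chow and 2968 HFD beta cells (Ins1 and Ins2 at least 20%), 740 and 374 alpha cells (else Gcg at least 5%), 447 and 370 delta cells (else Sst at least 1%), and 199 and 154 pancreatic polypeptide (PP) cells (else Ppy at least 15%). Markers that the rule did not use were mostly highest where they belong: in the chow library the glucose transporter gene Slc2a2 stood at 79.0 UMIs per 1000000 UMIs of the type (CPM) in beta cells and 4.12 in alpha cells, and Hhex at 227 in delta cells against 3.65 in alpha cells. The beta cell factor Mafa was near 0 in beta cells, at 0.0743 and 0.0802 CPM, and the delta class also carried much Ppy. Each diet thus has 1 library and no replicate: the diet values describe these 2 libraries, carry intervals for counting error only, and have no test.

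In beta cells most of the module was lower in the HFD library. The median over all genes measured in a type was subtracted from each member's log2 ratio (HFD over chow), and a member counts as past the fold at 1.5 times from that median. Of the 35 members, 32 lay below the median, 10 were at least 1.5 times lower and 0 at least 1.5 times higher, where the same rule took 9.07% of the 12252 genes measured in beta cells as lower and 4.42% as higher. The members' median relative log2 ratio was -0.38, against 0 for all genes by construction. The 10 were Cope, Tmed3, Sec13, Tmed9, Copz2, Sar1b, Lman1, Kdelr3, Kdelr2 and Tmed10, so every role group but the lone SNARE had at least 1 of them. Leaving out the SNARE, the share ran from 11.1% in the COPII coat, near the 9.07% of all genes, to 66.7% of the 3 KDEL receptors. Summed over the module, the level was 2900 CPM in the chow and 2317 CPM in the HFD library.

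The share of lower genes differed with the level of the genes. Among the 1508 other genes with a level inside the interquartile range of the members' levels, 33.0 to 112 CPM, a range set after the values had been seen, 67.6% lay below the median and 16.8% were at least 1.5 times lower, with a median of -0.16. The shift that centring took out was also largest in beta cells, where the median gene had a log2 ratio of 0.19. Without centring, 24 of the 35 members were below 0, 11 were above it, and 4 remained at least 1.5 times lower: Cope, Sec13, Tmed3 and Tmed9. The share of all genes past the fold without centring was not computed.

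**Figure D1:**
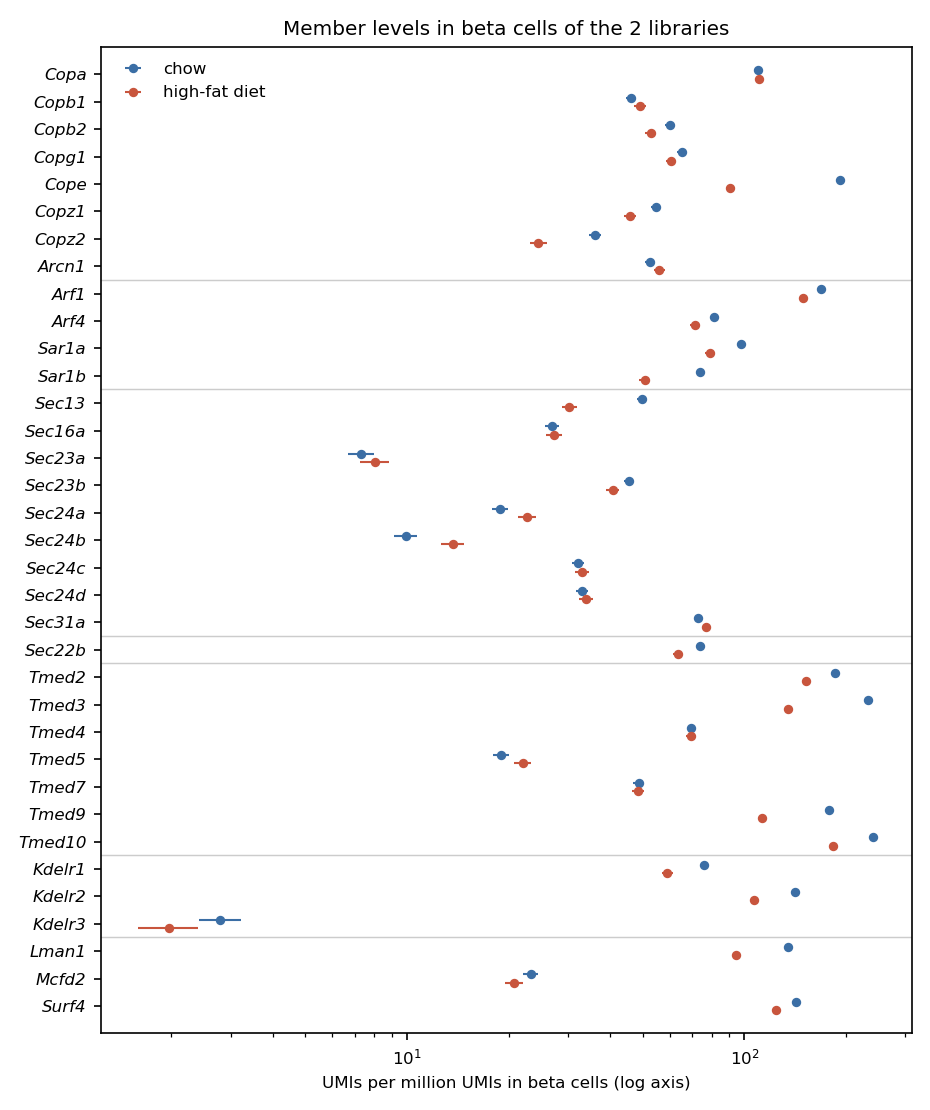
Level of each member in beta cells, in CPM on a log axis, with points for the chow and the HFD library and bars for exact Poisson 95% intervals; grey lines part the role groups. The gap between the points is wide for Cope (192 and 90.8) and Tmed3 (233 and 134), and small or turned the other way for most COPII genes.

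The COPI coat differed by subunit. Cope (ENSMUSG00000055681), which encodes the epsilon subunit, gave 12885 UMIs in chow and 4531 in HFD beta cells, or 192 CPM (95% interval 188 to 195) and 90.8 CPM (88.2 to 93.5). That is a relative log2 ratio of -1.27 (-1.32 to -1.22), or 2.41 times lower, and it was the lowest value in the module. Copz2, an alternative zeta subunit, stood at 36.0 and 24.5 CPM, a relative log2 ratio of -0.75. The other 6 subunits lay between -0.44 for Copz1, which encodes the other zeta subunit, and -0.11 for Copb1. Copb1, a beta subunit gene, was at 46.1 CPM in chow and 49.0 in HFD, so it was slightly higher before centring and slightly lower after it. The group's median was -0.34, with 8 of 8 subunits below the all-gene median and 2 past the fold.

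Of the GTPases, Sar1b was past the fold, with 73.9 CPM in chow beta cells and 50.6 CPM in HFD beta cells, a relative log2 ratio of -0.74 (-0.81 to -0.67). Its paralog Sar1a lay at -0.49. Arf4 and Arf1, which recruit COPI, were the closest to the median of this group, at -0.38 and -0.37, and Arf1 was at 169 and 149 CPM. All 4 were below the median.

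Of the 9 genes of the COPII coat, 1 was past the fold (11.1%), near the 9.07% of all genes measured in beta cells. Sec13 (ENSMUSG00000030298), a cage subunit that also serves in the nuclear pore, lay apart from the other 8 genes: it stood at 49.6 CPM (47.9 to 51.3) in chow and 30.2 CPM (28.7 to 31.8) in HFD, a relative log2 ratio of -0.91 (-0.995 to -0.82). Its cage partner Sec31a lay at -0.11. The inner coat genes were near the median, between -0.35 for Sec23b and 0.27 for Sec24b. Sec24b, a cargo binding subunit, had the highest ratio of the module, with 9.91 CPM in chow and 13.7 CPM in HFD, and its counting interval of 0.11 to 0.42 lay above the median. The exit site scaffold Sec16a was at -0.17. The group's median was -0.15, and its 9 genes summed to 296 and 287 CPM.

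Among the p24 proteins, 3 of 7 were past the fold. Tmed3 (ENSMUSG00000032353) was at 233 CPM (229 to 237) in chow beta cells and 134 CPM (131 to 137) in HFD beta cells, a relative log2 ratio of -0.99 (-1.03 to -0.95). Tmed9 (ENSMUSG00000058569) was at 178 and 113 CPM, or -0.85, and Tmed10, another p24 protein, at 240 and 182 CPM, or -0.59, just past the fold. Tmed2 lay at -0.48, while Tmed4 and Tmed7 lay near -0.20. Tmed5 was at 19.0 CPM in chow and 22.0 CPM in HFD, and its relative log2 ratio of 0.02 had an interval that held 0, from -0.10 to 0.14. The group's median was -0.48.

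The KDEL receptors, which return ER chaperones from the Golgi, were alike in direction. Kdelr2 was at 141 CPM in chow beta cells and 106 CPM in HFD beta cells, a relative log2 ratio of -0.60, and Kdelr1 at 76.1 and 59.0 CPM, or -0.56, just short of the fold. Kdelr3 (ENSMUSG00000010830) was scarce, with 188 and 98 UMIs, 2.79 and 1.96 CPM, and a relative log2 ratio of -0.70 whose interval ran from -1.07 to -0.34. Of the cargo receptors, Lman1, a lectin that carries glycoproteins out of the ER, was at 135 and 94.6 CPM, or -0.70. Its cofactor Mcfd2 lay at -0.36, with 23.2 and 20.7 CPM, and Surf4, a receptor for soluble cargo, at -0.39. The SNARE Sec22b was at 74.1 and 63.6 CPM, a relative log2 ratio of -0.41. None of these 7 genes was above the median.

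The beta cells of the libraries also differed in heat shock transcripts: 33.1% of chow and 4.25% of HFD beta cells held a UMI of Hspa1a or Hspa1b, which encode inducible chaperones, at a median of 14653 and 16758.5 UMIs per cell. In the cells without such a UMI, 32 of 35 members were still below the median and their median was -0.32, while 5 were past the fold: Cope, Tmed3, Sec13, Tmed9 and Lman1. The share of all genes past the fold in the cells without such a UMI was not computed. Of the 32 members below the median in all beta cells, 24 were closer to 0 in these cells. Markers of non-endocrine cells were low in beta cells: the acinar markers, of which 5 of 6 are in the gene table, summed to 18.8 CPM in chow beta cells and 5.59 CPM in HFD beta cells, the 4 ductal markers to 122 and 65.4, the 6 endothelial markers to 17.7 and 21.4, the 6 macrophage markers to 37.3 and 59.4, and the 6 mesenchymal markers to 1.49 and 6.72. Markers of the other endocrine types were higher in beta cells and differed between the libraries: the 6 alpha markers summed to 744 CPM in chow and 481 in HFD, the 5 delta markers to 1900 and 2713, and the 4 PP markers to 3590 and 4870, with Ppy at 1985 and 2520, Pyy, which is in both of the last lists, at 1518 and 2245, and Ttr at 684 and 412. None of these markers was at 0 in either library, and their part in the result was not tested. Cope, Tmed3, Sec13 and Tmed9 stayed below 0 under all 16 alternative settings run in beta cells. Their ranges were -1.55 to -0.74, -1.12 to -0.66, -1.13 to -0.46 and -1.03 to -0.56. Some of these settings have no centring, so their values are not relative to the median. The 4 genes were past the fold in 16, 16, 15 and 15 settings. Many other members, such as Lman1, Copb2 and Arf1, also stayed below 0 in all 16.

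Outside the beta cells few members were past the fold. In alpha cells 28 of 35 members were above that median and 0 were past the fold in either direction, where 4.97% of 8919 genes were lower and 4.55% higher by the same rule. Their median relative log2 ratio was 0.16. In delta cells 27 of 35 lay below the median, with a median of -0.18, and 0 were past the fold, where 2.7% of 8616 genes were lower and 4.79% higher. In PP cells 34 members were measured, since Sec23a had 31 UMIs in all and missed the minimum summed count of 50. There 22 lay below, the median was -0.13, and Lman1 alone was past the fold, at 86.4 CPM in chow and 60.0 CPM in HFD, a relative log2 ratio of -0.61; the rule took 4.7% of 5706 genes as lower and 8.08% as higher.

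Cope lay on different sides of the median by type. It was at 207 CPM in chow and 257 CPM in HFD alpha cells, a relative log2 ratio of 0.32 (0.21 to 0.44), so it was higher where beta cells were lower. In delta cells it was at 392 and 302 CPM, or -0.46, and in PP cells at 226 and 184 CPM, or -0.38. Sec13 followed the same order, with 0.48 in alpha, -0.46 in delta and -0.26 in PP cells. Tmed3 was below the median in every type, at -0.15 in alpha, -0.41 in delta and -0.49 in PP cells. Lman1 was at 88.0 and 114 CPM in alpha cells, or 0.38, and at -0.40 in delta cells. A difference between types in the response to diet could not be tested with 1 library per diet.

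**Figure D2:**
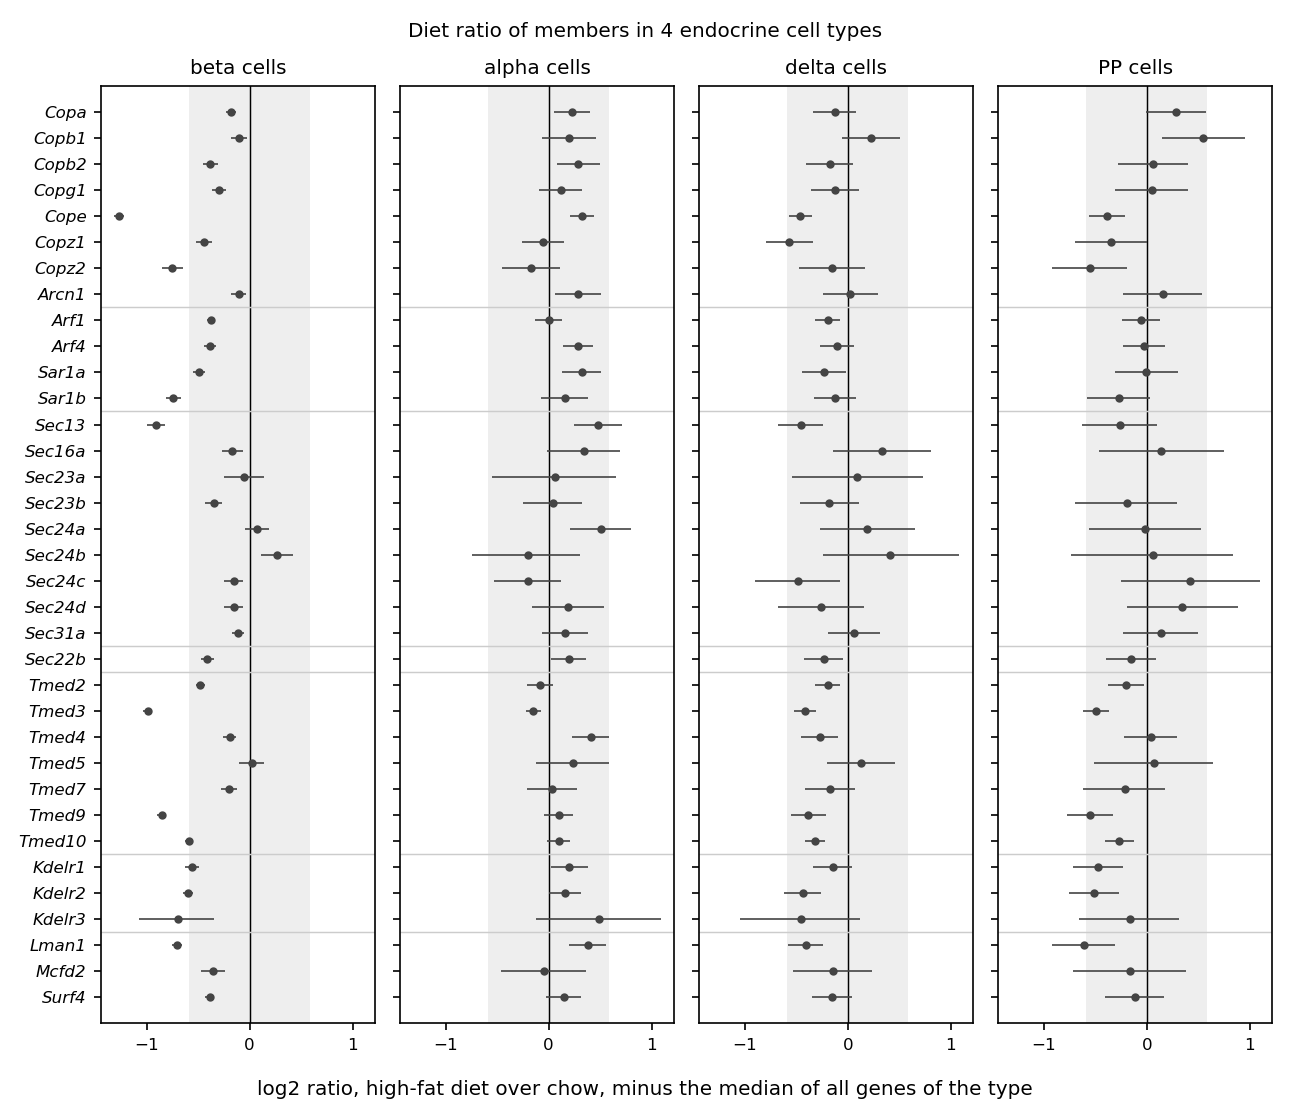
Log2 ratio of HFD over chow minus the median of all genes of the type, for each member in beta, alpha, delta and PP cells, with 95% intervals for counting error; the grey band marks less than 1.5 times from the median, and a member not measured in a type is not drawn. Beta values lie to the left of 0 for 32 of 35 members, and alpha values to the right for 28 of 35.

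Of the pathway's other genes in beta cells, lists chosen for their function, with earlier results of these data known, gave the following. As a background, the same rule took 9.07% of the 12252 genes measured in beta cells as lower and 4.42% as higher. Among other coat, p24 and cargo receptor genes, 4 of the 12 measured were at least 1.5 times lower and 0 higher, with a median of -0.38: the p24 gene Tmed6 (8.01 CPM in chow, 2.77 in HFD, relative log2 ratio -1.72), the cornichon Cnih4 (-0.96), Ergic3 (-0.77) and Rer1, a retrieval receptor of the early Golgi (-0.72). Among 17 GTPase regulators and exit site organisers, Arf5 was lower (-0.65) and Mia2 higher (0.89, from 0.699 to 1.48 CPM), and the median was -0.12. Among 26 tethers and SNAREs, 5 were lower and 0 higher, with a median of -0.34. That share of 19.2% lower was near the 16.8% among the 1508 other genes inside the range of the members' levels. The 5 included Trappc1 (68.9 and 39.8 CPM, -0.98), Trappc5 (-0.78) and Trappc2l (-0.70) of the TRAPP tethering complex, and the SNARE Bet1 (50.9 and 31.7 CPM, -0.88).

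Genes of the unfolded protein response, the programme that raises ER folding and transport capacity when unfolded proteins accumulate, were lower by more than the module. Of the 26, 12 were at least 1.5 times lower and 0 higher, where 9.07% of all measured genes were lower and 4.42% higher. The list's median was -0.53. This list, too, was chosen with earlier results of these data known. The largest differences were in Sdf2l1 (97.5 and 39.9 CPM, relative log2 ratio -1.48), a partner of the chaperone BiP, Manf (300 and 129 CPM, -1.40), a secreted ER stress protein, Trib3 (-1.28), a pseudokinase, and Creld2 (-1.12), an ER protein. In alpha cells the same list had a median of 0.15, with 0 genes past the fold downward and 1 upward. There 4.97% of all measured genes were lower and 4.55% higher by that rule.

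The members' promoters were read for short patterns of letters, which the choice of genes did not use. RefSeq promoters of build GRCm38.p6, each 300 bases long from 250 before to 50 after a gene's start, were found for 30 of the 35 members. The 6 letters GACGTG, read on either strand, occurred in 15 of 30 members and in 7.15% of all 27025 genes with a promoter. The 8 letters TGACGTGG, the unfolded protein response element, which contain those 6, occurred in 6 of 30 (Copb1, Copb2, Arf1, Sec23a, Sec24d and Kdelr3) and in 0.714% of all genes. Of 4 further patterns searched, the ER stress element (ERSE) occurred in 0 of 30 members and 0.137% of all genes, its variant ERSE-II in 0 and 0.0444%, the cyclic AMP element TGACGTCA, which overlaps GACGTG in 5 letters, in 1 (Cope) and 2.03%, and CCACG, a piece of several of the others, in 22 and 35.5%. Among the 21 genes of the unfolded protein response list with a promoter, GACGTG occurred in 4 and TGACGTGG in 0. In the same 21, ERSE occurred in 7, ERSE-II in 2, TGACGTCA in 0 and CCACG in 16. These patterns were chosen after the values had been seen, and a match is a description of the letters, not of a bound site.

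The stretches below show where the core lies in the promoters of 3 members past the fold in beta cells and of 2 that did not pass it but were higher in beta cells than in the other types. Capitals mark GACGTG or its reverse complement, and each is 80 bases from RefSeq GRCm38.p6, 5′ to 3′ on the gene's strand. In Kdelr3 the second block in capitals is part of the reverse complement of TGACGTGG.
Tmed3, chr9:89705203-89705282, minus strand: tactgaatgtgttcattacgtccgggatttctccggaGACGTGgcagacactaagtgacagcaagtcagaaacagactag
Copz2, chr11:96849718-96849797, plus strand: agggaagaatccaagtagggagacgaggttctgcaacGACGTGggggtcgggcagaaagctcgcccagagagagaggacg
Kdelr3, chr15:79516328-79516407, plus strand: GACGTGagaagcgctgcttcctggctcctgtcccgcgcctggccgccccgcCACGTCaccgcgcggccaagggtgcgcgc
Sec16a, chr2:26445302-26445381, minus strand: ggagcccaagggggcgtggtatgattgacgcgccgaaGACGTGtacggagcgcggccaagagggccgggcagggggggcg
Sec24c, chr14:20674208-20674287, plus strand: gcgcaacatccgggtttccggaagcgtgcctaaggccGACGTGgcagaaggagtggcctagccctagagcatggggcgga

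The 15 members with the core had a median relative log2 ratio of -0.38 in beta cells and the 15 without it one of -0.36, and 4 of each were past the fold. Cope and Tmed9, past the fold, had no GACGTG in this window, while Sec24c and Sec16a, near the median, had it.

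**Figure D3:**
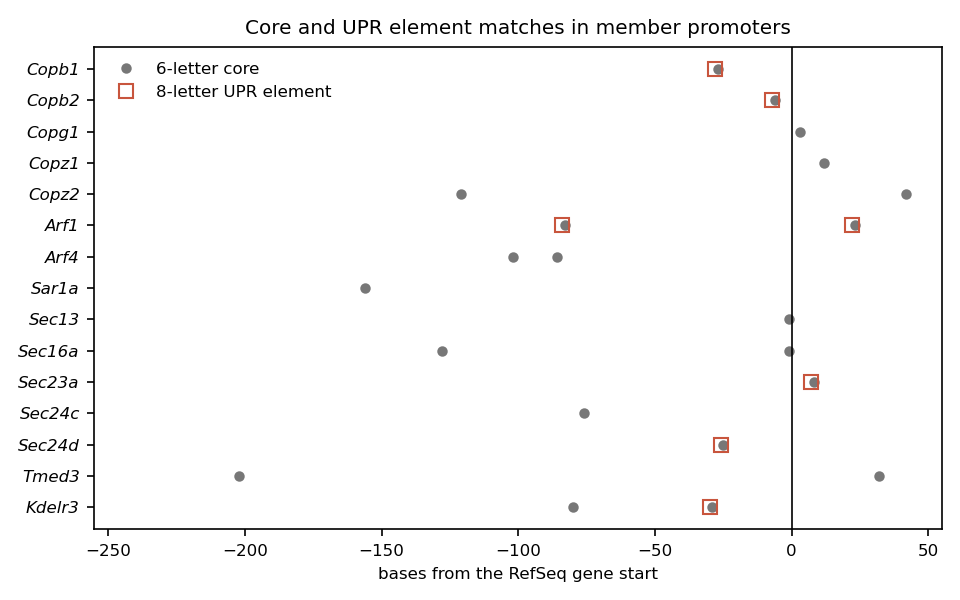
Position of GACGTG (filled circles) and TGACGTGG (open squares), on either strand, in the promoters of the 15 members that hold the core, in bases from the RefSeq gene start at 0. Matches lie on both sides of the start, and Arf1 shows the same match at 2 positions because it has 2 listed starts.

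Levels of the members were next compared between cell types within the libraries, which could be tested: edgeR's quasi-likelihood test ran on 8 sums, the 4 types in each library, with the library as a block and Benjamini-Hochberg adjustment over 11106 genes. With that block, the spread it uses is how far the differences between types vary between the 2 libraries, which also differ in diet. Against alpha cells, 12 of 35 members were higher in beta cells and 4 lower at an adjusted p under 0.05, where 23.5% of all genes were higher and 22.6% lower. Against delta cells, 15 were higher and 2 lower, with 25.9% and 24.6% of all genes. Against PP cells, 8 were higher and 7 lower, with 21% and 20.4% of all genes. Set beside the background, the share of members higher than in alpha (34.3%) and delta cells (42.9%) was above it, and the share higher than in PP cells (22.9%) was close to it.

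These directions depend on how the types are scaled, since hormones took 60.7% of UMIs in chow beta cells and 28.9% in alpha, 33.1% in delta and 57.5% in PP cells. On CPM of all UMIs, 4 of the 12 members called higher than in alpha cells kept that direction in both libraries, 7 of the 15 for delta cells and 8 of the 8 for PP cells. On CPM of UMIs outside 7 hormone genes, 12, 15 and 8 kept it, while 2 of the 4 called lower than in alpha cells did, without Arf4 and Sec24a. Sec24a was also the 1 member called in both directions, lower than in alpha and higher than in delta cells.

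The members higher in beta cells than in all 3 other types were Copa, Sec16a, Sec23b, Sec24c, Sec24d, Sec31a and Surf4, 5 of them from COPII. The 3 contrasts share the same beta sums, and the share of all genes called in all 3 was not computed. Of the 7 members, Sec24d, Sec31a and Surf4 kept the direction against each type in both libraries on all 3 scales; the others turned in at least 1 library against alpha cells on CPM of all UMIs, and Sec23b did so in both libraries against delta cells. Surf4 had a normalised level (CPM after TMM scaling) of 187 in chow and 149 in HFD beta cells, 89.7 and 99.7 in alpha, 91.0 and 81.3 in delta, and 103 and 91.5 in PP cells. Both beta values thus lay above all 6 others, with log2 differences of 0.82 (SE 0.15), 0.96 (0.15) and 0.79 (0.15) and edgeR adjusted p of 2.59e-04, 6.21e-05 and 7.81e-04.

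Sec31a was at 96.4 and 92.9 in beta cells and between 50.9 and 61.2 in the 6 other sums, and Sec24d, a cargo binding subunit, at 43.5 and 40.8 against 18.2 to 31.3. For Sec31a the log2 differences were 0.72, 0.87 and 0.67, each with an SE of 0.14 or 0.15, and for Sec24d 0.82, 1.07 and 0.57, with an SE of 0.15, 0.16 and 0.17. The edgeR adjusted p of Sec24d against PP cells was 0.0143. Sec24c was at 42.3 and 39.7 in beta cells and 16.3 to 30.7 in the others, and Sec16a at 35.5 and 32.9 against 13.8 to 26.2, with log2 differences of 1.02 and 1.14 against delta cells. Copa, the alpha subunit of COPI, was at 144 and 133 in beta cells and 73.0 to 103 in the others, and Sec23b at 59.9 and 49.1 against 30.8 to 43.4. On this scale the beta values of each of these genes lay above those of the other types in both libraries. Calls for Copa, Surf4 and Kdelr3 against each type passed the threshold in all 9 alternative fits. The others lost at least 1 call: with DESeq2 Sec16a and Sec24c against alpha, Sec23b against delta, and Sec16a and Sec24d against PP cells; without the library block Sec24c against alpha and Sec23b against delta cells; and with cells thinned to 4000 UMIs these last calls and those of Sec23b, Sec24c, Sec24d and Sec31a against PP cells.

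Kdelr3 was the member lower in beta cells than in all 3 other types, and it was so in both libraries on all 3 scales. Its normalised level was 3.69 in chow and 2.37 in HFD beta cells, 6.85 and 9.63 in alpha, 12.2 and 8.82 in delta, and 37.1 and 31.8 in PP cells. The log2 differences were -1.40 (SE 0.25), -1.79 (0.24) and -3.51 (0.23), with edgeR adjusted p of 1.94e-04, 1.41e-05 and 6.34e-09. The PP values were the highest of the 4 types in both libraries. Tmed3 was at 307 and 162 in beta cells against 531 and 482 in alpha and 600 and 411 in PP cells, log2 differences of -1.18 (0.17) and -1.14 (0.17), and its difference from delta cells did not pass the threshold. Against PP cells Copz2, Arf4, Sec22b, Tmed10 and Kdelr1 were also lower in beta cells, by log2 differences between -0.97 for Arf4 and -0.51 for Tmed10, and Cope was lower than in delta cells (-0.58, edgeR adjusted p 0.0489). No call was made against any type for 9 members: Arf1, Copb2, Copz1, Sec13, Sec23a, Tmed2, Tmed4, Tmed5 and Tmed7. The shares of all genes lower in beta cells than in all 3 types, or called against none, were not computed.

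**Figure D4:**
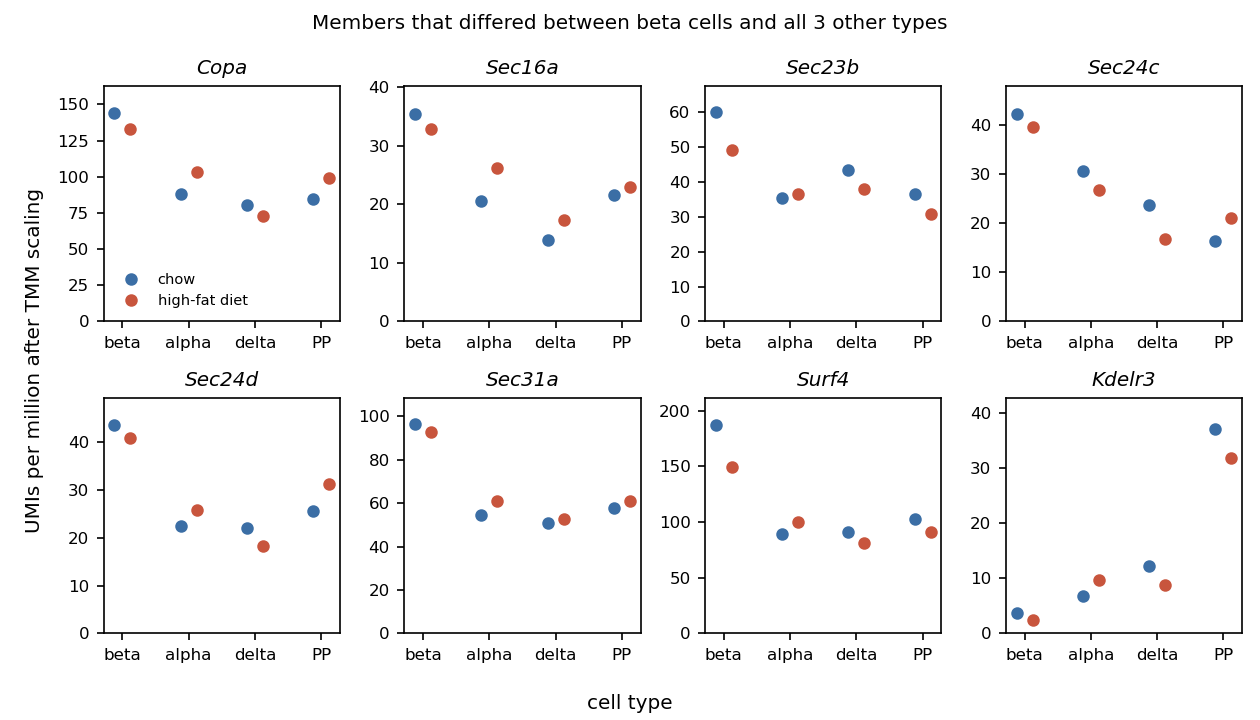
Level in CPM after TMM scaling in beta, alpha, delta and PP cells, 1 point per library, for the 8 members that differed between beta cells and each of the 3 other types; every axis starts at 0. In 7 panels the beta points lie above the others (Surf4 at 187 and 149), and in the Kdelr3 panel PP cells stand highest at 37.1 and 31.8.

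Kdelr3 and Copz2 were also uneven in the cells outside the endocrine types. In the 34 chow and 49 HFD cells gated on mesenchymal markers Kdelr3 was at 92.1 and 89.3 CPM, in 173 and 121 endothelial cells at 47.3 and 30.1 CPM, and in macrophages it had 0 UMIs in 54 chow cells, where 3 counts in place of 0 would be 5.68 CPM and the exact Poisson 95% interval reaches 6.99 CPM, and 1 UMI in 69 HFD cells. Copz2 was at 60.4 and 57.6 CPM in the cells gated on mesenchymal markers and 31.3 and 18.5 CPM in endothelial cells, with 2 and 1 UMIs in macrophages. Tmed5 was instead highest in endothelial cells, at 204 and 240 CPM, against 19.0 and 22.0 in beta cells. The class gated on mesenchymal markers also held ductal markers: its 6 mesenchymal markers summed to 2402 and 2313 CPM and the 4 ductal markers to 7538 and 10798, of which Spp1 made up 7233 and 10568, Cldn4 184 and 143, Krt19 74.8 and 49.6, and Sox9 46.0 and 37.7. It is therefore named here by its gate, not as a cell type, and the part of ductal cells in its values was not tested. In these small classes the intervals are wide: for Kdelr3 in the mesenchymal gate they ran from 63.0 to 130 and from 65.2 to 120 CPM. Hormones took 2.88% of UMIs in chow endothelial cells and 60.7% in chow beta cells, so CPM of these classes and of beta cells are not on the same footing.

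The members were also set out within each library by Cd63, which encodes a tetraspanin of endosomes and secretory granules. After the diet values had been seen, beta cells of a library were split into 3 equal groups by the Cd63 share of their UMIs. In the chow library 24 of 35 members were above the all-gene median in the highest against the lowest group, 7 were at least 1.5 times higher and 1 lower, where 11.8% of 10834 genes were higher and 2.37% lower, and the median was 0.23. The 7 were Cope, Sar1b, Sec13, Tmed3, Tmed9, Tmed10 and Kdelr3, and the 1 lower was Sec23a; these values come from the same chow cells as the diet comparison. In the HFD library 19 were above, 0 were past the fold in either direction, where 3.49% of 10672 genes were higher and 1.36% lower, and the median was 0.01.

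From the lowest to the highest group Cope stood at 131, 171 and 252 CPM in the chow library, a relative log2 ratio of 1.21 between the outer groups, and at 81.0, 84.8 and 105 CPM in the HFD library, or 0.38. Its highest HFD value was below its lowest chow value. Sec13 was at 36.9, 43.6 and 63.7 CPM in chow (1.05) and 27.6, 27.1 and 35.7 CPM in HFD (0.37), and Tmed3 at 178, 223 and 280 CPM in chow (0.91) and 116, 126 and 158 CPM in HFD (0.45). Of the COPII genes, 2 of 9 were above the median in chow and 1 of 9 in HFD. The chow and HFD groups share no cells, but within a library the groups come from the same mice and differ in depth, with a median of 12554 UMIs per cell in the lowest and 17903.5 in the highest chow group, and 15174 and 17056.5 in HFD, and the part of depth in these values was not tested. Between the diets, 3 members were past the fold downward within the lowest group (Cope, Copz2 and Tmed3), where Kdelr3 was higher, and 12 within the highest. The share of all genes past the fold between the diets within a group was not computed. Kdelr3 was scarce in the lowest group, at 1.51 CPM in chow and 2.36 CPM in HFD. In that group 127 of 1457 chow and 264 of 989 HFD cells held no Cd63 UMI.

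**Figure D5:**
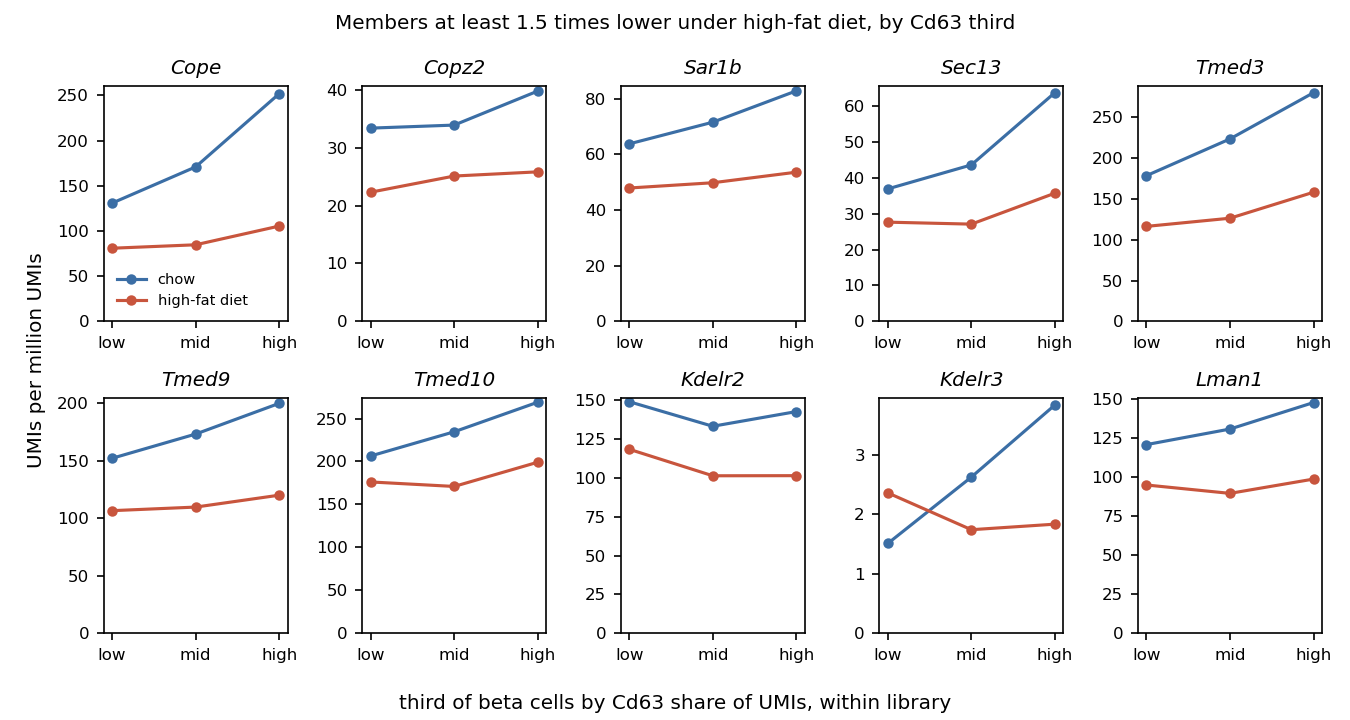
Level in CPM in 3 equal groups of beta cells ordered by the Cd63 share of UMIs (low, mid, high), for the 10 members at least 1.5 times lower under HFD, with points for the chow and the HFD library joined by lines; every axis starts at 0. The Cope line climbs from 131 to 252 in chow and from 81.0 to 105 in HFD.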

How the data were processed

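Per the labels, 10x Genomics single cell 3' v2 libraries were made from islets, 1 per diet; per the submitters' processing notes the reads went through Cell Ranger 2.1.0. The deposited tables hold raw UMI counts per gene and barcode. The genome build is not given in the sources used here. Barcodes with under 500 genes or over 10% mitochondrial UMIs were removed (122 chow, 145 HFD). Scrublet (scanpy 1.11.5) marked 0.0470% and 0.0228% by its automatic threshold, so scores in the top 5% were removed instead (278 and 194).

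Counts were summed per type and library and given as counts per 1000000 UMIs (CPM), with exact Poisson 95% intervals that cover counting error only. Diet ratios had 0.5 counts added, a minimum summed count of 50, and were centred on the all-gene median of the type. Between types, edgeR 4.0.16 (quasi-likelihood, TMM, filterByExpr) was used, with DESeq2 1.42.0 as an alternative, in R 4.3.3; the edgeR and ratio steps were tested on simulated data. P-values between types rest on how far the differences between types vary between the 2 libraries, after the library block. The members and lists were chosen with earlier results of these data known. Values were printed for the highest and lowest diet ratio of each role group, every member past 1.5 times in beta cells, members called against all 3 types, and up to 4 genes per direction of each list.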

Additional observations from a re-analysis of the deposited data

Results flagged for a closer look

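The module lay on opposite sides of the all-gene median in beta and alpha cells under the same diet contrast, a difference that was not tested because each diet has 1 library. The members' median relative log2 ratio of HFD over chow was -0.38 in beta and 0.16 in alpha cells, and 26 of 35 members lay below that median in beta and above it in alpha cells. The share of all genes with this joint pattern was not computed, so the count has no background. Of the other genes inside the interquartile range of the members' levels in a type, 67.6% lay below the median in beta and 48.3% in alpha cells. For 11 of the 26 members, a count made after the values were seen, the counting intervals excluded the median on both sides. In the COPI coat these were Cope (-1.27 in beta, 0.32 in alpha), Copb2 (-0.38 and 0.29), Copa (-0.18 and 0.23) and Arcn1 (-0.11 and 0.29). Among the GTPases they were Sar1a (-0.49 and 0.32) and Arf4 (-0.38 and 0.29), and in the COPII cage Sec13 (-0.91 and 0.48). The remaining ones were Lman1 (-0.70 and 0.38), Kdelr1 (-0.56 and 0.20), Sec22b (-0.41 and 0.19) and Tmed4 (-0.19 and 0.41). In the converse direction 1 member was above in beta and below in alpha cells, Sec24b, named after its values were seen. The share of cells with an Hspa1a or Hspa1b UMI was 13.5% in chow and 1.34% in HFD alpha cells, so it differed between the libraries in the same direction as in beta cells.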

How the results depend on the processing

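In beta cells the members' median lay between -0.45 and -0.19 over 16 settings, of which the 2 Cd63 groups were added after the data were seen; -0.19 is the value without centring. The number at least 1.5 times lower was 4 without centring, 4 per UMI outside the hormone genes, 5 in cells with no Hspa1a or Hspa1b UMI, 7 after thinning to 4000 UMIs (Tmed10, Kdelr2 and Kdelr3 lost), 8 by mean of per-cell CPM (Tmed10 and Kdelr2 lost), 9 at a minimum of 200 (Tmed10 lost), 12 in the highest Cd63 group, and 3 in the lowest, where 1 was higher: Kdelr3, which turned to 0.59. Without centring the median of GTPase regulators turned to 0.075 and that of tethers and SNAREs was -0.15; outside the hormone genes they were 0.055 and -0.17. In alpha cells 3 members were at least 1.5 times higher after thinning to 4000 UMIs. In delta cells the median was -0.092 without centring; 1 was lower with cells of more than 1 rule removed, with doubled hormone cutoffs, by mean of per-cell CPM and when thinned, and then 1 was higher. In PP cells 0 were lower and 1 higher without centring, with a minimum of 200 and with doubled cutoffs, 3 were lower with median-of-ratios factors and with no minimum (then 1 higher), 2 without doublet removal and by per-cell means, and 1 was higher in cells of at least 8000 UMIs. The share of all genes past the fold was not computed under any of these settings. The cause was not tested.

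Between types, members lower than in delta cells numbered 1 with DESeq2, without doublet removal, with doubled cutoffs and with cells of more than 1 rule removed, and 4 when thinned, which left 4 higher than in PP cells. The shares of all genes called in the alternative fits were not computed. Without the replicate block of the library, higher and lower calls were 8 and 3 against alpha, 10 and 1 against delta, and 7 and 6 against PP cells. That block pairs the types within a library. For diet no paired analysis was possible because each diet has 1 library. Over these alternatives 41 member calls were lost and 13 gained, and within either library alone every called member kept its direction after TMM scaling. Other directions that turned had an adjusted p of at least 0.05 in both fits: Tmed2 against delta cells to -0.017 with DESeq2 and RLE factors and -0.043 thinned; Mcfd2 against PP cells to -0.012 with both, -0.027 with doubled cutoffs and -0.19 thinned; Copz2 against alpha cells to 0.030 with no filter, 0.027 with doubled cutoffs, 0.013 without the block and 0.0058 with cells of more than 1 rule removed. Sec22b against delta cells turned to 0.043, 0.030, 0.013 and 0.074 (no filter, doubled cutoffs, such cells removed, thinned), Sar1b to 0.023 with no filter and 0.024 with doubled cutoffs, and Copz1 to 0.030 with no filter. Against PP cells Copz1 turned to 0.018 with no filter and 0.33 thinned, and Sec24a to 0.032 with doubled cutoffs and 0.0063 thinned. Tmed4 against alpha cells turned to 0.018 with no filter. Depth limits Kdelr3 and Sec23a most, and the 3' counts do not compare levels between genes.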
